A study of Homo sapiens with 20 samples.

Results

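The 10 genes described here encode proteins that shape the nucleus and its chromatin: the lamins LMNA, LMNB1 and LMNB2, the lamin-binding proteins LBR and TMPO, and the high mobility group proteins HMGB1, HMGB2, HMGB3, HMGA1 and HMGA2. They were taken by symbol from a table of 20314 genes, and the choice of genes was made with earlier results of these data known. All 10 were found, and all 10 passed the filter on low counts that left 14992 genes for testing. RNA of U2-OS cells, a human osteosarcoma line, was sequenced in 4 groups of 5 libraries each. Cells were left untreated, harvested 90 min or 7 days after irradiation (IR) with 20 Gy, or carried, without irradiation, an shRNA that targets NFKBIA, the gene of the NF-κB inhibitor IκBα. All groups were the same cell line. The study's methods describe lentiviral shRNA vectors, some of them induced by doxycycline (Dox), with puromycin selection of clones, and name Dox-treated cells with a scrambled shRNA as controls. The study's figure legends describe the sequenced knockdown as a Dox-inducible shRNA in cells given Dox beforehand. For the untreated libraries neither a vector nor Dox is labelled. Effects of Dox, the vector, the selection and the shRNA thus cannot be told apart in the knockdown comparison.

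The nuclear lamina is a meshwork of A-type and B-type lamins under the inner nuclear membrane that anchors heterochromatin and carries the shape of the nucleus. LMNA encodes the A-type lamins A and C, LMNB1 and LMNB2 the B-type lamins, LBR an inner membrane receptor that holds heterochromatin to the B-type lamins, and TMPO the lamina-associated polypeptides 2. HMGB proteins bend DNA through HMG boxes and act as alarmins when they leave the cell, while HMGA proteins bind AT-rich DNA in the minor groove through AT hooks. Loss of lamin B1 and of nuclear HMGB1 and HMGB2 is widely used to recognise senescent cells, and HMGA proteins are known from senescence-associated heterochromatin foci (SAHF).

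The libraries held 22535659 to 40390961 counts, and the smallest of them was untreated replicate 5. This library stood apart from its group: 1090 genes deviated by more than 1 log2 unit from the other untreated libraries, against 58 to 272 in the others of that group. It also was the only untreated library of its sequencing lane, lane 3, which held 3 libraries of the 90 min group. Lane 4 held 2 libraries each of 90 min and 7 days, lane 5 held 3 of 7 days and 1 of the knockdown, and the other lanes held libraries of 1 group each. Values without this library are therefore given beside the results that it moved most. NFKBIA stood at 31.3 ± 7.25 CPM (SD, n = 5), counts scaled to a common library size, in untreated cells and at 12.1 ± 0.667 CPM in the knockdown, a log2 fold change of -1.36 (SE 0.11, edgeR adjusted p = 4.87e-09). RUNX2 (67.6 to 206 CPM), SPARC and COL1A1, markers of the osteoblast lineage, and VIM were abundant in all libraries, whereas COL1A2 was near 0 with 4 to 21 counts. Of the markers of other cell types, CD3E, CD14 and CDH5 had at most 14 counts, and the epithelial keratin KRT18 reached 361 to 657 CPM. PTPRC had 5 to 54 counts and CDH1 8 to 94. The summed level of 8 such markers, most of it from KRT18, was 369 to 665 CPM in untreated libraries, 459 to 536 CPM at 90 min, 451 to 466 CPM at 7 days and 446 to 490.5 CPM in the knockdown. At 90 min 1 of 6 osteosarcoma cell markers was called lower, against 1.57% of all genes, and their median log2 fold change was -0.23. At 7 days SPARC was called lower, with a log2 fold change of -0.75, and ALPL higher, with 0.77. In the knockdown COL1A1 and ALPL were called lower, at -1.68 and -1.96. Of the markers of other types, EPCAM and CDH1 were called lower at 7 days, at -0.86 and -0.72, and PTPRC and CDH1 in the knockdown, at -1.52 and -2.01. Their part in the values of the 10 genes was not tested.

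Windows around the start sites of 5 genes that fell after irradiation are shown first, with LMNA as a gene that was not called, because several of these genes moved together. For HMGB2 and HMGA2 no window is shown. Each runs from 250 bases before to 50 bases after a RefSeq start site on GRCh38.p14 and is written 5′ to 3′ in the direction of the gene. Capitals mark matches, on either strand, of the CCAAT box (CCAAT), of the cell cycle genes homology region (TTTGAA or TTCGAA) and of an E2F site (TTTCCCGC, TTTGGCGC or TTTCGCGC). None of the matches marked here overlapped another.
LMNB1 (chr5:126776886-126777185, plus strand): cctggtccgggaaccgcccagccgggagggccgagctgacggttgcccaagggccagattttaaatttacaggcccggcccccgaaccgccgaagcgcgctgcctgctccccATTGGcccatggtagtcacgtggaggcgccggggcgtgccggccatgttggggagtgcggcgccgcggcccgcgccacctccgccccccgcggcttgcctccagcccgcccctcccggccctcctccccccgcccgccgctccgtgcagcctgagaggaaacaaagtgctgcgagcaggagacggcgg
TMPO (chr12:98515323-98515622, plus strand): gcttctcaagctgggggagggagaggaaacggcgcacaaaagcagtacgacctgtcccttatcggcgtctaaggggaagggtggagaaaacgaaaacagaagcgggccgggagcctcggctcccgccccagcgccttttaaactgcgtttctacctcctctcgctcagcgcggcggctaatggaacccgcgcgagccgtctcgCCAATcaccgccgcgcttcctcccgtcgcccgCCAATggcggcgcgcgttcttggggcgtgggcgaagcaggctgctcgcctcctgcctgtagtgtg
HMGB1 (chr13:30465887-30466186, minus strand): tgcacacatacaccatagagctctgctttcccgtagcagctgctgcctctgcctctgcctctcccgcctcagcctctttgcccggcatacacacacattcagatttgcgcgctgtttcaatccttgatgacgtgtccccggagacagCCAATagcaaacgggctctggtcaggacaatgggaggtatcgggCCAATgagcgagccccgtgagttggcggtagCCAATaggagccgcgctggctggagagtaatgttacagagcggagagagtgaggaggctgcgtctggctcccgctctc
HMGB3 (chrX:150983085-150983384, plus strand): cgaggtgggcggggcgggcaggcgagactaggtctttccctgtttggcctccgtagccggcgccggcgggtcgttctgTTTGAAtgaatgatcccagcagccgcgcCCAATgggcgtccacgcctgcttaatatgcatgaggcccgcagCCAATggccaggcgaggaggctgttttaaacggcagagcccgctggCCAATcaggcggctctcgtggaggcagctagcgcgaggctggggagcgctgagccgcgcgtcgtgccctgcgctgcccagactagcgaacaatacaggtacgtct
LBR (chr1:225428772-225429071, minus strand): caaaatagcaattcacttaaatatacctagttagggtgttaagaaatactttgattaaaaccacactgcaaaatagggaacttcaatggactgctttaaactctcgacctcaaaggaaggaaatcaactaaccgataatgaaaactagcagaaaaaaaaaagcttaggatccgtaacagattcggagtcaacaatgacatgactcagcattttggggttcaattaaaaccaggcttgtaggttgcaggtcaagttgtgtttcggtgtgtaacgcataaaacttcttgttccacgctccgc
LMNA (chr1:156082323-156082622, plus strand): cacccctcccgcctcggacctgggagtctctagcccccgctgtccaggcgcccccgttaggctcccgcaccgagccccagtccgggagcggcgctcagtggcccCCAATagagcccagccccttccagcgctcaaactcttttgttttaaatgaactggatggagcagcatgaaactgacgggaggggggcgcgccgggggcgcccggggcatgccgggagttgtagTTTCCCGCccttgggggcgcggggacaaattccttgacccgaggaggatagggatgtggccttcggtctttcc
The TMPO window held 2 CCAAT boxes, the windows of HMGB1 and HMGB3 shown here 3 each, and that of LMNB1 1. HMGB3 also held 1 cell cycle genes homology region, LMNA held 1 E2F site and 1 CCAAT box, and the LBR window held none of these letters. Of 35116 windows of the same length, 34.6% held a CCAAT box, 16.4% a cell cycle genes homology region and 2.74% an E2F site. In all, 16 windows of 8 of the genes were found. Where a gene had several start sites, a window with matches was chosen for print. The other window of LMNB1, the other of HMGB3, both others of LMNA and 1 of the 2 others of HMGB1 held none of these letters. The remaining HMGB1 window held 1 cell cycle genes homology region and 1 CCAAT box. The only LMNB2 window held 1 cell cycle genes homology region and each HMGA1 window 1 CCAAT box. The other TMPO window largely overlaps the one shown and held the same 2 CCAAT boxes. Such matches are a description of the letters and not of binding, which was not measured.

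Compared per length, as CPM per kilobase of the gene width in the deposited table, HMGA1 was the most abundant of the 10 genes in untreated cells at 276 ± 132 (SD, n = 5), and it lay above 99.6% of the genes tested. This mean includes the high untreated replicate 5, without which the level in CPM was 506 in place of 643. LMNB1 followed at 87.7 ± 3.61, HMGB2 at 68.1 ± 9.85 and LMNA at 64.2 ± 9.06, of which the last 2 differed by less than their spread. LMNB2 stood at 48.1, HMGB1 at 40.8, LBR at 27.9, TMPO at 22.3 and HMGB3 at 19.8 CPM per kilobase. HMGA2, which is spread over the widest gene model of the set, was lowest at 3.66 ± 1.18, above 38.2% of the genes tested. At 7 days post-IR the level of LMNB1 per kilobase was 29.3 ± 0.987, below that of LMNA at 55.5 ± 1.65. Their order thus turned only in values per kilobase. In CPM, not divided by gene width, LMNA was above LMNB1 already in untreated cells, at 448 against 319. LMNA and LBR lie on chromosome 1, LMNB1 on 5, LMNB2 on 19, TMPO and HMGA2 on 12, HMGB1 on 13, HMGB2 on 4, HMGB3 on X and HMGA1 on 6.

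**Figure D1:**
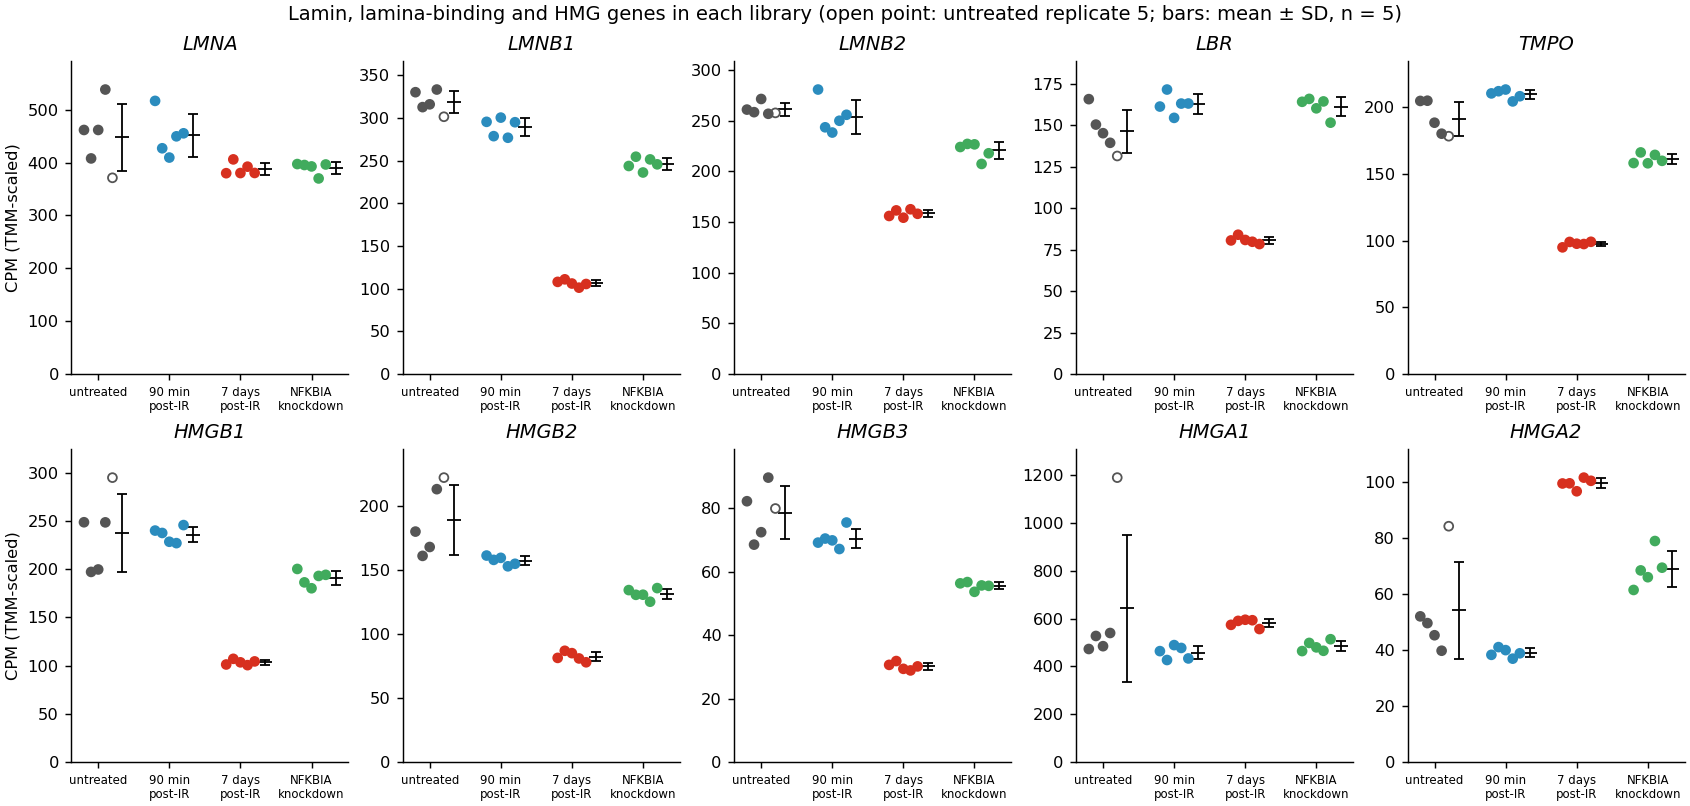
Level of each of the 10 genes in every library, in CPM on a linear axis from 0, by group. Points are libraries, the open point is untreated replicate 5, and bars give the mean ± SD of 5 libraries. The 5 libraries at 7 days post-IR lie below all untreated libraries for LMNB1, LMNB2, LBR, TMPO, HMGB1, HMGB2 and HMGB3, and above them for HMGA2.

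At 7 days post-IR, 7 of the 10 genes had fallen against untreated cells, namely LMNB1, LMNB2, LBR, TMPO, HMGB1, HMGB2 and HMGB3, and HMGA2 had risen. LMNA and HMGA1 were not called. A gene was called when its log2 fold change exceeded 0.5 in either direction and its Benjamini-Hochberg adjusted p was under 0.05 in edgeR's quasi-likelihood test over all genes tested, given here as the edgeR adjusted p. Of all genes tested, 31.1% were called in this comparison, 14.4% lower and 16.7% higher. The median log2 fold change of the 10 genes was -0.92, that of all genes 0.012. Libraries of the groups did not overlap for 8 of the 10, against 44.8% of all genes tested. In bulk RNA a lower level cannot be assigned to less RNA per cell or to fewer cells of one kind, as these cannot be told apart.

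LMNB1 showed the largest fall of the set over all libraries, whereas with a term for the lane HMGB1 at -1.51 was below LMNB1 at -1.43. Its level was 330.2, 313, 316, 333 and 301 CPM in untreated replicates 1 to 5, and 108, 111, 106, 101 and 106 CPM in the replicates at 7 days post-IR. The lowest untreated library was thus far above the highest irradiated one. The log2 fold change was -1.58 (SE 0.043, edgeR adjusted p = 3.35e-17), and by p LMNB1 ranked 15 among the genes tested. At 90 min post-IR it measured 296, 279, 300.5, 277 and 295 CPM, and in the knockdown 244, 255, 236, 251.5 and 246 CPM. The order was untreated, 90 min, knockdown and 7 days, and no libraries of neighbouring groups in that order overlapped. Each of these neighbours differed with p = 0.00794 in the exact permutation test of log2 CPM (two-sided, 5 against 5), which is the smallest p that 5 against 5 libraries can give (adjusted p = 0.0116 over 60 such tests). These tests take no account of the lane. With a term for it LMNB1 was at -0.048 at 90 min and at -0.21 in the knockdown, each against untreated. At 90 min against the knockdown it was at 0.16, in place of 0.23. The first value rests on untreated replicate 5, the last on knockdown replicate 1 and the second on both. The order of untreated, 90 min and knockdown thus cannot be told apart from the lane.

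LMNB2, the other B-type lamin, also fell, with a smaller log2 fold change than LMNB1. It ranged from 257 to 272 CPM in untreated cells and from 154 to 163 CPM at 7 days post-IR, without overlap, and its log2 fold change was -0.72 (SE 0.045, edgeR adjusted p = 1.32e-11). Part of the LMNB2 gene overlaps TIMM13 on the same strand in the GENCODE 29 annotation, and reads of both genes may not be separable.

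LBR and TMPO, which tie membrane and chromatin to the lamina, fell as well. LBR measured 166, 150.4, 145, 139 and 131 CPM in untreated replicates 1 to 5 and 80.6, 84.0, 80.9, 79.8 and 78.4 CPM at 7 days. TMPO measured 205, 205, 189, 180.3 and 178 CPM in untreated replicates and 95.05, 99.1, 97.8, 97.5 and 99.2 CPM at 7 days. In neither gene did the groups overlap, and the untreated libraries were the more spread. The log2 fold change was -0.86 (SE 0.053, edgeR adjusted p = 9.13e-12) for LBR and -0.97 (SE 0.043, edgeR adjusted p = 6.52e-14) for TMPO. TMPO has an antisense gene, TMPO-AS1, not used here, and the setting for strand at counting is not given in the sources used here.

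LMNA was not called. It measured 462, 408, 462, 538 and 371 CPM in untreated replicates 1 to 5 and 380, 406, 380.3, 392 and 380.4 CPM at 7 days post-IR. The untreated libraries reached from below to above the irradiated ones. The log2 fold change was -0.21 (SE 0.076, 95% interval -0.37 to -0.051, edgeR adjusted p = 0.0209), under the threshold on size, and the exact permutation test gave p = 0.0794 (adjusted p = 0.0934 over 60 tests). Without untreated replicate 5 the value was -0.29, and a fit with a term for the lane gave 0.078.

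The A-type to B-type balance was therefore followed within libraries, as a ratio of counts that does not depend on the scaling of libraries. The log2 ratio of LMNA to LMNB1 was 0.48 ± 0.15 in untreated cells, 0.64 ± 0.13 at 90 min, 1.87 ± 0.053 at 7 days and 0.66 ± 0.070 in the knockdown (SD, n = 5 each). Against untreated cells the ratio of counts was 2.61-fold higher at 7 days, a log2 difference of 1.39 with no overlap (exact permutation test, two-sided, p = 0.00794, adjusted p = 0.0136 over 12 ratio tests). Against 90 min post-IR the log2 difference was 1.23, with the same p. Within lane 4 the 2 libraries at 7 days had log2 ratios of 1.81 and 1.87, and the 2 at 90 min had 0.70 and 0.63. In the knockdown the log2 difference of 0.18 gave p = 0.0397 by the exact permutation test (adjusted p = 0.0529), and at 90 min the log2 difference of 0.16 gave p = 0.119. Without untreated replicate 5 the difference at 7 days was 1.34 and that of the knockdown 0.14.

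HMGB1, HMGB2 and HMGB3, the HMG-box proteins, all fell at 7 days, each with a larger log2 fold change than LMNB2, LBR or TMPO, though these differences between genes were not tested. HMGB1 ranged from 197 to 295 CPM in untreated cells and from 101 to 107 CPM at 7 days post-IR, a log2 fold change of -1.20 (SE 0.080, edgeR adjusted p = 3.53e-11). HMGB3 ranged from 68.5 to 89.6 CPM and from 28.9 to 31.8 CPM, a log2 fold change of -1.38 (SE 0.060, edgeR adjusted p = 3.83e-14), the largest of the HMG genes here without the lane term and second to HMGB1 with it (-1.39 against -1.51). The groups did not overlap in either gene. HMGB2 measured 180.1, 161, 168, 213 and 222 CPM in untreated replicates 1 to 5 and 81.4, 87.0, 85.1, 81.0 and 78.0 CPM at 7 days, a log2 fold change of -1.19 (SE 0.071, edgeR adjusted p = 5.28e-12). Untreated replicate 5 was the highest untreated library for HMGB1 and HMGB2, and without it the log2 fold changes were -1.13 and -1.15. GENCODE 29 names 48 pseudogenes of HMGB1, 29 of HMGB3 and 1 of HMGB2, of which none had a row of its own in the table used here, so that the share of reads they took or gave is unknown.

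Within libraries, the balance of HMGB1 and HMGB2 at 7 days differed from that in untreated cells by less than the spread between replicates. The log2 ratio of HMGB2 to HMGB1 was -0.33 ± 0.11 in untreated cells and -0.33 ± 0.055 at 7 days (SD, n = 5 each, exact permutation test p = 0.992). At 90 min post-IR it was -0.58 ± 0.053, a log2 difference of -0.26 against untreated cells with no overlap (exact permutation test p = 0.00794, adjusted p = 0.0136). From 90 min to 7 days the ratio was higher again by 0.26, with the same p. In the knockdown it was -0.54 ± 0.062, a log2 difference of -0.21 with overlapping libraries (exact permutation test p = 0.0159, adjusted p = 0.0238). Without untreated replicate 5 the differences were -0.28 at 90 min and -0.23 in the knockdown. Within lane 3 the untreated library had a log2 ratio of -0.41, and the 3 libraries at 90 min had -0.57, -0.59 and -0.52.

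**Figure D2:**
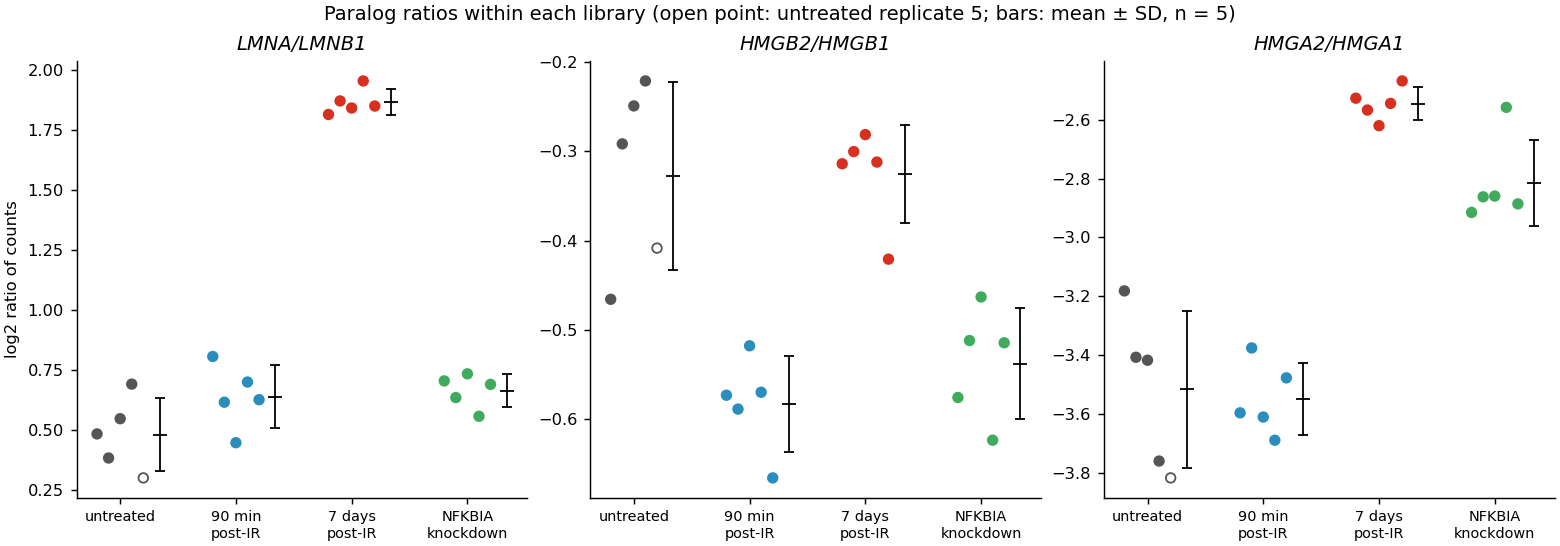
Log2 ratio of counts of LMNA to LMNB1, HMGB2 to HMGB1 and HMGA2 to HMGA1 in each library, by group, with separate vertical axes. Points are libraries, the open point is untreated replicate 5, and bars give the mean ± SD of 5 libraries. The libraries at 7 days post-IR lie from 1.81 to 1.95 for LMNA to LMNB1, above all other libraries.

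HMGA2 was called higher at 7 days. HMGA2 measured 52.1, 49.7, 45.3, 39.8 and 84.3 CPM in untreated replicates 1 to 5 and 99.6, 99.6, 96.8, 101.6 and 100.5 CPM at 7 days post-IR. All irradiated libraries were above all untreated ones, and untreated replicate 5 was the closest to them. HMGA2 had risen 1.84-fold, a log2 fold change of 0.88 (SE 0.13, edgeR adjusted p = 4.76e-06), and without untreated replicate 5 the log2 fold change was 1.07. A fit with a term for the lane, in which the untreated level rests on untreated replicate 5 alone, gave 0.31 (edgeR adjusted p = 0.0931) and the call was lost. Against 90 min post-IR, where 38.3, 41.1, 40.02, 37.0 and 38.9 CPM were measured, HMGA2 was 2.55-fold higher at 7 days. This log2 fold change was 1.35 over all libraries and 1.39 within lane 4, where no untreated library takes part. AC090673.1, on the opposite strand, overlaps HMGA2 and has its own row in the table.

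The value of HMGA1 depended on 1 library. It measured 473, 527, 485, 539.7 and 1189 CPM in untreated replicates 1 to 5, and the last of these was 2.35-fold the mean of the other 4 (506 ± 32.4 CPM, SD, n = 4). At 7 days post-IR it measured 574, 590.3, 595, 593 and 556 CPM, above untreated replicates 1 to 4 and below replicate 5. The log2 fold change was -0.14 (SE 0.17, edgeR adjusted p = 0.486) with all libraries and 0.18 (edgeR adjusted p = 0.00304) without untreated replicate 5, so that its sign turned. With a term for the lane the value was -1.02. Against 90 min post-IR, at 427 to 489 CPM, HMGA1 was higher at 7 days without overlap, with a log2 fold change of 0.34 (SE 0.17, edgeR adjusted p = 0.0931) that was not called. In the fit over all groups this SE draws on the spread of untreated replicate 5, which is in neither of these groups. The value was also under the threshold on size. The exact permutation test gave p = 0.00794 for that pair of groups (adjusted p = 0.0116 over 60 tests).

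Both genes were high in untreated replicate 5, but its log2 ratio of HMGA2 to HMGA1, -3.82, lay next to that of untreated replicate 4, -3.76. This ratio was -3.52 ± 0.27 in untreated cells, -3.55 ± 0.12 at 90 min, -2.55 ± 0.056 at 7 days and -2.82 ± 0.15 in the knockdown (SD, n = 5 each). Both the libraries at 7 days, by a log2 difference of 0.97, and those of the knockdown, by 0.70, lay above all untreated libraries (exact permutation tests p = 0.00794 each, adjusted p = 0.0136 each). At 90 min the log2 difference was -0.033 (exact permutation test p = 0.817). Without untreated replicate 5 the differences at 7 days and in the knockdown were 0.90 and 0.63.

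**Figure D3:**
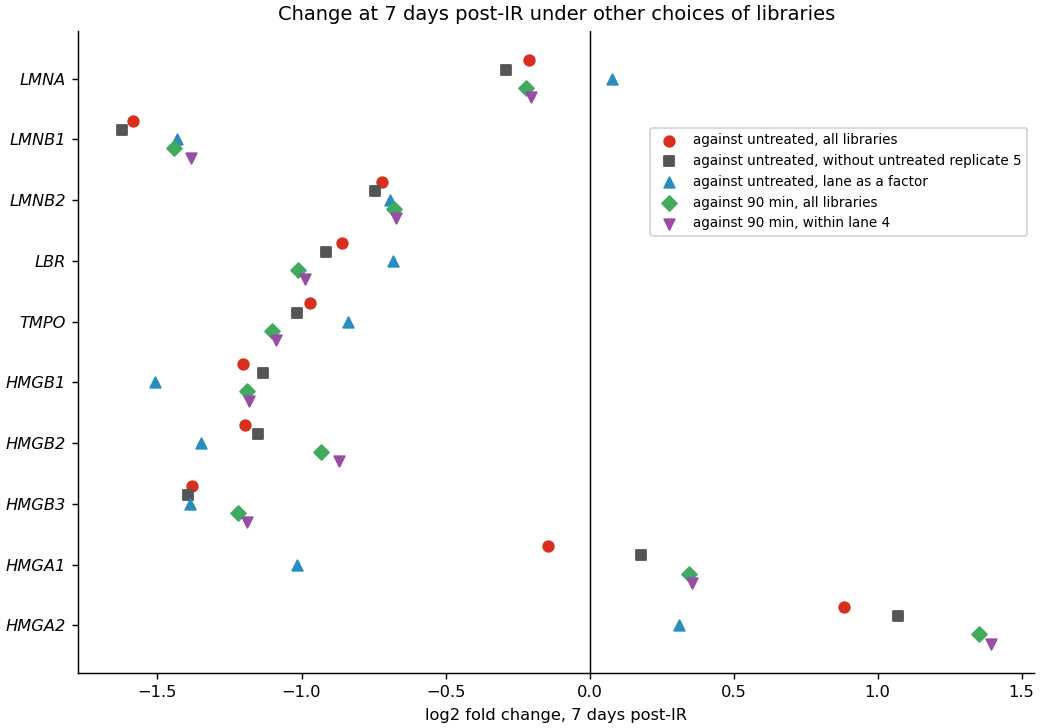
Log2 fold change of each gene at 7 days post-IR, against untreated or against 90 min post-IR, over all libraries and under 3 other choices of libraries or model. The 7 genes that fell stay below -0.5 in every choice shown, whereas HMGA1 runs from -1.02 to 0.35 and HMGA2 from 0.31 to 1.39.

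At 90 min post-IR none of the 10 genes was called by edgeR, while 3.66% of all genes tested were called, 2.08% higher and 1.57% lower. The adjusted p alone was under 0.05 for 5 of them, and DESeq2 with both thresholds also called none. Libraries overlapped for 9 of the 10, and the exception was LMNB1 (log2 fold change -0.14, SE 0.042, edgeR adjusted p = 0.0217). With a term for the lane this was -0.048 (edgeR adjusted p = 0.594). Of all genes tested, 12.3% did not overlap in this comparison. LBR and TMPO had log2 fold changes of 0.15 (edgeR adjusted p = 0.0427) and 0.13, and without untreated replicate 5 that of LBR was 0.11 (edgeR adjusted p = 0.0634). HMGB2 had -0.26 (edgeR adjusted p = 0.0100). The largest values belonged to HMGA1 at -0.49 (edgeR adjusted p = 0.0505) and HMGA2 at -0.47 (edgeR adjusted p = 0.0141). Without untreated replicate 5 they were -0.15 and -0.27, and with a term for the lane, which here rests on that library alone, -1.37 and -1.08. LMNA, LMNB2 and HMGB1 were within 0.05 log2 units of no difference, whereas the lane term gave 0.28 for LMNA and -0.33 for HMGB1. It also gave -0.48 for HMGB2, 0.30 for LBR and 0.25 for TMPO.

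The level at 7 days was then compared with that at 90 min, both after irradiation. The labels name a single untreated group without a harvest time, so that time in culture and irradiation cannot be told apart in this difference. The same 7 genes were called lower and HMGA2 higher, 8 of 10 against 29.3% of all genes tested (12.6% lower and 16.8% higher). For all 10 the libraries did not overlap, against 61.8% of all genes. LMNB1 differed by -1.44 log2 units (SE 0.043, edgeR adjusted p = 1.77e-16), HMGB3 by -1.22, HMGB1 by -1.19, TMPO by -1.10, LBR by -1.01, HMGB2 by -0.93 and LMNB2 by -0.68. Lane 4 held 2 libraries of each time, and within it the values were -1.38 for LMNB1, -1.19 for HMGB3, -1.18 for HMGB1, -1.09 for TMPO, -0.99 for LBR, -0.87 for HMGB2 and -0.67 for LMNB2. All 8 calls held within the lane. LMNA differed by -0.22 (SE 0.076, edgeR adjusted p = 0.0162), under the threshold on size.

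**Figure D4:**
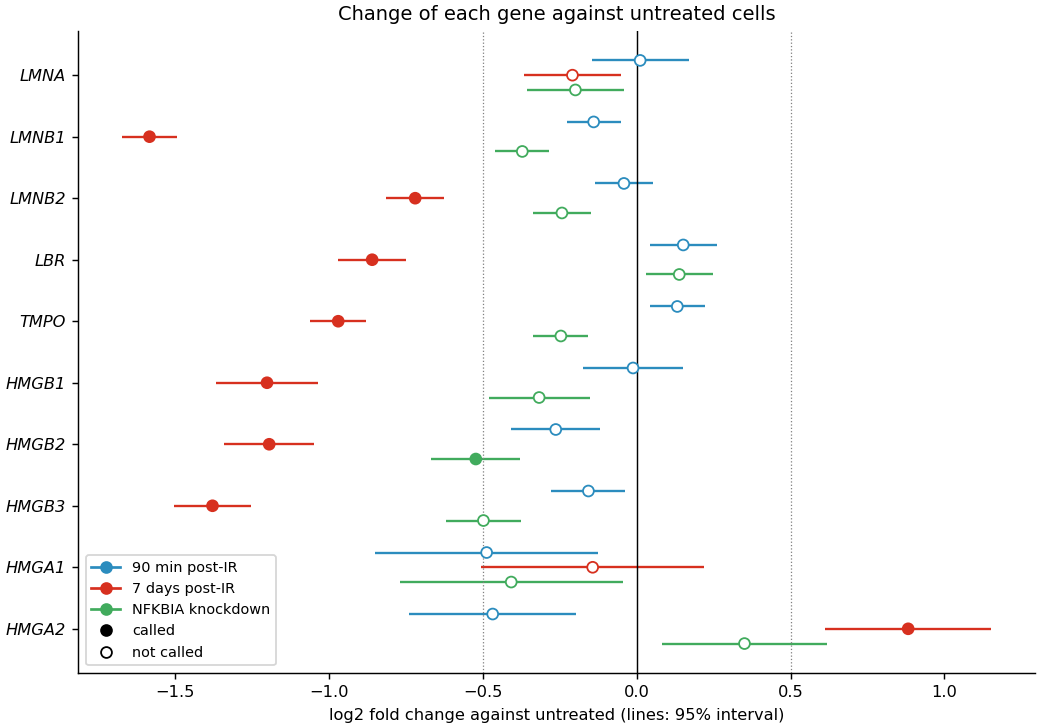
Log2 fold change of each gene against untreated cells at 90 min post-IR, at 7 days post-IR and in the NFKBIA knockdown, with 95% intervals. Filled points were called, and dotted lines mark the threshold of 0.5 in size. At 7 days LMNB1 is lowest at -1.58 and HMGA2 highest at 0.88, whereas in the knockdown only HMGB2 at -0.52 is called.

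In the NFKBIA knockdown, without irradiation, the differences were small and mostly below 0. HMGB2 alone was called, 1 of 10 genes against 12.7% of all genes tested (7.53% lower and 5.18% higher). Of the 10 genes, 8 had negative log2 fold changes, the median was -0.28, and that of all genes -0.0080. Libraries did not overlap for 5 of the 10, all lower in the knockdown, against 24.1% of all genes. HMGB2 measured 134, 131, 131, 125 and 136 CPM in knockdown replicates 1 to 5, below the lowest untreated library at 161 CPM. Its log2 fold change was -0.52 (SE 0.070, edgeR adjusted p = 4.55e-06), just past the threshold, and without untreated replicate 5 it was -0.48 and no longer called. HMGB3 lay just short of the threshold at -0.498 (SE 0.058, edgeR adjusted p = 8.53e-07), and without that library it was called at -0.51. LMNB1 was at -0.37 (SE 0.042, edgeR adjusted p = 5.53e-07), HMGB1 at -0.32, TMPO at -0.25, LMNB2 at -0.24 and LMNA at -0.20, all under the threshold on size. LBR was at 0.14 (edgeR adjusted p = 0.0388), and at 0.086 without untreated replicate 5 (edgeR adjusted p = 0.115). HMGA2 measured 61.5 to 79.0 CPM, a log2 fold change of 0.35 (SE 0.13, edgeR adjusted p = 0.0356). Without untreated replicate 5 this was 0.54 (edgeR adjusted p = 8.63e-07) and called, and with a term for the lane -0.39. In this comparison the lane term rests on untreated replicate 5 and knockdown replicate 1, the only libraries of their groups in lanes shared with other groups. HMGA1 was at -0.41 (edgeR adjusted p = 0.0669), at -0.081 without untreated replicate 5 and at -1.34 with the lane term. That term also gave -0.55 for HMGB1, past both thresholds, and 0.36 for LBR. For LMNB1 and TMPO it gave -0.21 and -0.15, with edgeR adjusted p = 0.174 and 0.349. For LMNB2 and HMGB3 it gave -0.19 and -0.45, with edgeR adjusted p = 0.303 and 0.0629.

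Set against the knockdown, the cells at 7 days post-IR were lower in 6 of the genes and higher in HMGA2, 7 of 10 called against 25.7% of all genes tested (9.89% lower and 15.8% higher). Libraries did not overlap for 9 of the 10, against 60.7% of all genes. LMNB1 differed by -1.21 log2 units (SE 0.043, edgeR adjusted p = 2.02e-15), LBR by -0.998, HMGB1 and HMGB3 by -0.88 each, TMPO by -0.72 and HMGB2 by -0.67, whereas LMNB2 at -0.48 missed the threshold on size. HMGA2 differed by 0.53 (SE 0.13, edgeR adjusted p = 0.00133), and this call was lost without knockdown replicate 1 (0.476) or replicate 3. LMNA differed by -0.0096, with a 95% interval of -0.17 to 0.15. Within lane 5, which held 3 libraries of 7 days and 1 of the knockdown, LMNB2 was just past the threshold at -0.501. The other differences there were -1.23 for LMNB1, -1.04 for LBR and 0.70 for HMGA2. That comparison rests on 1 knockdown library, which is assumed to vary like the other groups. Between 90 min post-IR and the knockdown, HMGA2 alone was called, at -0.82 log2 units (edgeR adjusted p = 3.31e-05), 1 of 10 against 14.1% of all genes (6.54% lower and 7.6% higher). Libraries did not overlap for 8 of the 10, of which 7 were higher at 90 min, against 43.6% of all genes.

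The 7 genes that fell at 7 days varied together over the libraries. Their 21 pairwise Pearson correlations of log2 CPM ranged from 0.804 to 0.984, with a median of 0.952 over 20 libraries. These points share the group differences and the untreated libraries, so that the values are a description only. The genes with the pattern most like LMNB1 over the 20 libraries were FXYD6 (r = 0.993), DLGAP5, a mitotic spindle gene (0.992), TNNC1 (0.990), JPH3 (0.989) and the chromokinesin KIF4A (0.989). For HMGB2 they were CDKN3 (0.988), SNX15, ANP32B, HIRIP3 and MED30, for HMGA2 they were KLK6 (0.980), DFFA, LRRC6 and ORAI3, and for LMNA they were PSMA7 (0.941), PSMG3, KRT10, FSTL3 and TYMS. HMGB2 thus had CDKN3, a phosphatase that acts on CDK2, as its closest gene.

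Genes of related proteins were then counted, to be read against all genes tested, of which 14.4% were called lower and 16.7% higher at 7 days. Of 21 further proteins of the lamina and inner nuclear membrane, 6 were called lower and 2 higher at 7 days post-IR, with a median log2 fold change of -0.11. The share called in either direction was near that of all genes (31.1%). By direction, a larger share was called lower and a smaller share higher than of all genes, which was not tested. SUN2, which joins the lamina to the cytoskeleton through nesprins, fell by 1.20 on the log2 scale (SE 0.070, edgeR adjusted p = 4.0e-12). NRM, the inner membrane protein nurim, fell by 1.16, the LEM-domain gene LEMD1, at 1.99 CPM in untreated cells, by 1.005 and the heterochromatin tether PRR14 by 0.93. The 2 called higher, SYNE4 at 0.60 and IFFO1 at 0.87, were picked for naming after their values were seen. In the knockdown NRM fell by 0.60, PRR14 by 0.65 and LEMD1 by 1.07, 3 of 21 called lower against 7.53% of all genes. None of 5 lamin processing enzymes was called at 7 days, by edgeR, and 5 of 30 nuclear pore genes were called lower, a share near that of all genes (14.4%). Among them were NUP210 at -0.76, AAAS at -0.60, NDC1 at -0.57 and NUP85 at -0.54. NUP50 and POM121 were called lower in the knockdown, at -0.53 and -0.56, 2 of 30 against 7.53% of all genes. At 7 days they were at -0.46 and -0.36, under the thresholds, and the difference between 7 days and the knockdown was not called for either.

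Among 12 other HMG proteins 7 were called lower at 7 days and none higher, against 14.4% and 16.7% of all genes, with a median log2 fold change of -0.53. HMGN5, which binds nucleosomes, fell by 1.06, SSRP1, a subunit of the histone chaperone FACT, by 0.93, the ribosomal gene transcription factor UBTF by 0.75 and HMGN2 by 0.64. HMGN5 also fell by 0.86 in the knockdown, where it was the only one of these called, 1 of 12 against 7.53% of all genes called lower. Of 19 heterochromatin and SAHF factors, 5 were called lower at 7 days and none higher, against 14.4% and 16.7% of all genes, and the median was -0.35. SUV39H1, which methylates histone H3 in heterochromatin, fell by 0.99, the maintenance DNA methyltransferase DNMT1 by 0.88, the corepressor TRIM28 by 0.74 and the histone variant MACROH2A2, under the older symbol H2AFY2 in the table, by 0.63. MACROH2A2 fell by 0.51 in the knockdown as well, the only one of these called there, 1 of 19 against 7.53% of all genes called lower.

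The receptors and partners of extracellular HMGB1 were mostly higher. Of 6 that could be tested, 5 were called higher, TREM1 among them, and 1 lower at 7 days post-IR, while HMGB1 itself fell. SDC1, a heparan sulfate proteoglycan, rose by 1.63 on the log2 scale (SE 0.085, edgeR adjusted p = 6.6e-13), the receptor HAVCR2 by 1.38 and the chemokine CXCL12, with which HMGB1 forms a complex, by 0.91, at 13 to 65 counts in untreated libraries. TREM1 had 0 to 4 counts in untreated libraries, 1 to 7 at 90 min, 1 to 11 in the knockdown and 95 to 110 at 7 days. It passed the filter on low counts only through the libraries at 7 days, so that its call there says nothing about the list. TLR4 was called at 0.64. AGER, the receptor RAGE, was the gene called lower, at -0.83 (SE 0.12), and like TLR4 it was named after its value was seen. CXCL12 rose by 1.23 in the knockdown, the only 1 of the 6 called there, where 5.18% of all genes were called higher. Of 4 let-7 targets and regulators often studied with HMGA2, IGF2BP3 rose by 1.97 and IGF2BP1 fell by 1.40 at 7 days. IGF2BP3 also rose by 0.71 in the knockdown, 1 of 4 against 5.18% of all genes called higher.

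Proliferation genes were lower in the same libraries as the 7 genes that fell. Of 26, 23 were called lower at 7 days with a median log2 fold change of -1.06, among them MKI67 at -1.74, PLK1 at -1.57, CENPA at -1.38 and CENPF at -1.27. In the knockdown 4 were called lower, against 7.53% of all genes, MKI67 at -0.88, PLK1 at -0.63, BIRC5 at -0.59 and TPX2 at -0.56, and the median was -0.36. At 90 min 3 were called lower, against 1.57% of all genes, with CENPA at -0.72 and PLK1 at -0.74. The part of proliferation in the fall of the lamin and HMGB genes was not tested.

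**Figure D5:**
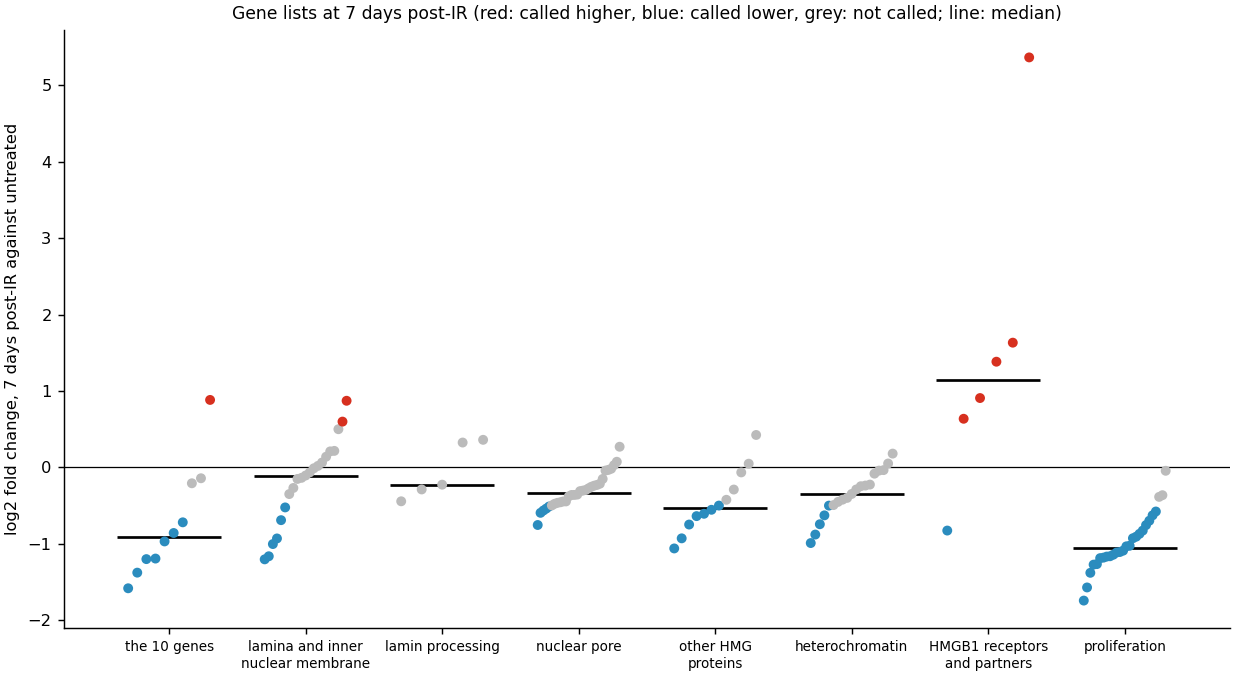
Log2 fold change at 7 days post-IR against untreated cells for the 10 genes and for 7 lists of related genes. Each point is a gene tested, red points were called higher, blue points lower, grey points were not called, and lines mark medians. The median of the 10 genes is -0.92, that of the proliferation genes -1.06 and that of the nuclear pore genes -0.33. The highest point, TREM1 at 5.37, is a fitted value of a gene with 0 to 4 counts in untreated libraries and is no measure of its fold.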

How the data were processed

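RNA-seq counts of U2-OS cells were analysed as the authors deposited them, as whole-number read counts for 20314 genes without normalization, in 20 libraries. Per the methods, stranded mRNA libraries were sequenced as single reads. The submitters' processing notes name bcl2fastq, Trimmomatic, STAR 2.4.2a and hg19. The counting tool, the annotation and the strand setting are not given in the sources used here. Of the genes, 1679 had no symbol, and 876 of these were named from a reference table. The study calls the 5 libraries of a group biological replicates and the labels call them quintuplicates. P-values measure the spread between these samples.

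The tests were run with edgeR 4.0.16 under R 4.3.3: filterByExpr with a minimum count of 10 (14992 genes), TMM scaling, and 1 quasi-likelihood fit over all groups without covariates. The 4 groups were compared in 6 pairs, with Benjamini-Hochberg adjustment over the genes tested, and genes were called past 0.5 in log2 fold change and under 0.05 in adjusted p. Log2 CPM used a prior count of 2. Single genes and within-library ratios were compared by exact permutation tests (SciPy 1.17.1). Alternatives were RLE and upper-quartile factors, library size alone, no filter and at least 10 counts in every library, DESeq2 1.42.0, the replicate number or the lane as a factor, values within lanes, a fit of only the groups compared, other thresholds, 5 in place of 0.5 counts added in the ratios, and leaving out each library. The edgeR step was tested on simulated data.

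The members and gene lists were chosen with earlier results of these data known. Named were all 10 genes and NFKBIA, up to 4 genes of each list with the largest change at 7 days among those called, up to 2 more for the knockdown, and the 5 genes most correlated with LMNB1, HMGB2, HMGA2 and LMNA, of which 1 for HMGA2 is not reported here. Overlaps and pseudogenes came from GENCODE 29, and start-site windows from RefSeq on GRCh38.p14, and windows of HMGB2 and HMGA2 were not used here. Figures were drawn with matplotlib 3.10.9.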

Additional observations from a re-analysis of the deposited data

Results flagged for a closer look

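In 40 sets of 5 libraries, 10 genes in 4 groups, 3 held a library far from the others by Dixon's ratio of gap to range, above 0.71, where chance alone flags about 1 in 20 sets, or 2 here. HMGA1 in untreated replicate 5 was high, with a ratio of 0.856 at 1189 CPM. LMNA in knockdown replicate 4 was low, with a ratio of 0.840 at 370.0 CPM. LMNB2 in untreated replicate 3 was high, with a ratio of 0.711 at 272 CPM, a difference of a few percent from its group. Of the 3, HMGA1 is in the library that stood apart over many genes.

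The level differed between 7 days and 90 min post-IR for 8 genes. This was tested between the irradiated groups, since both differences from untreated cells share the untreated libraries. Time in culture cannot be told apart from irradiation here, as no untreated cells of 7 days are labelled. In log2 units the level at 7 days minus that at 90 min was -1.44 for LMNB1, -0.68 for LMNB2, -1.01 for LBR, -1.10 for TMPO, -1.19 for HMGB1, -0.93 for HMGB2, -1.22 for HMGB3 and 1.35 for HMGA2.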

How the results depend on the processing

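At 7 days post-IR 8 of the 10 genes were called whichever library of either group was left out, and 8 were called with the lane as a factor, where HMGA1 took the place of HMGA2. A log2 threshold of 1 left 4 called at 7 days, 0 in the knockdown, 1 for 7 days against the knockdown and 0 for 90 min against the knockdown. The adjusted p alone called 5 at 90 min, 9 in the knockdown and 8 for 90 min against the knockdown. In the knockdown the count of 1 was 0 with upper-quartile factors or library size alone, 2 with RLE factors, no filter, at least 10 counts in every library or DESeq2, and 3 with a term for the lane. It ranged from 0 to 2 when a library was left out, with 0 without untreated replicate 4 and 2 without untreated replicate 2, 3 or 5 or knockdown replicate 1 or 2. The count with the lane term rests on untreated replicate 5 and knockdown replicate 1. At 90 min the count of 0 was 1 with at least 10 counts in every library, 2 with the lane as a factor or within lane 3, which are the same by construction. It ranged from 0 to 2 when a library was left out, with 1 without untreated replicate 1 or 2 and 2 without untreated replicate 3 or 4.

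Some signs turned. LMNA at 90 min was -0.0077 with upper-quartile factors and -0.056 to 0.075 when a library was left out. HMGB1 at 90 min was 0.018 with library size alone, 0.0086 with only the groups compared and -0.072 to 0.070 when a library was left out. LBR for 90 min against the knockdown was -0.030 with upper-quartile factors, -0.021 with library size alone, -0.056 with the lane as a factor and -0.0017 to 0.035 when a library was left out. LMNA for 7 days against the knockdown was 0.0026 with at least 10 counts in every library. With the lane as a factor LMNA was 0.078 at 7 days, from -0.21, and 0.13 in the knockdown, from -0.20, and HMGA2 in the knockdown was -0.39, from 0.35. HMGA1 at 7 days was -0.24 to 0.18 when a library was left out, positive only without untreated replicate 5. When a library was left out, the log2 ratio difference of HMGA2 to HMGA1 at 90 min was -0.11 to 0.051, that of HMGB2 to HMGB1 at 7 days -0.033 to 0.028, and that of LMNA to LMNB1 0.11 to 0.21 at 90 min and 0.14 to 0.24 in the knockdown. The causes were not tested.

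Over all genes, 548, 4657 and 1906 were called at 90 min, at 7 days and in the knockdown, 4398 and 3857 for 7 days against 90 min and against the knockdown, and 2121 for 90 min against the knockdown. In the same order, the adjusted p alone called 3191, 9620, 6078, 9131, 8609 and 6245, and a log2 threshold of 1 called 90, 1826, 524, 1626, 1531 and 633. The lane as a factor called 3820 at 90 min (as within lane 3), 4088 in the knockdown and 1186 for 90 min against the knockdown. Replicate numbers did not pair the samples: over 30 same-numbered pairs r was -0.254 to 0.123. The replicate block gave 496, 4628 and 1849 calls against untreated, and changed no call among the 10 genes. Depth did not limit these genes, which had at least 842 counts in every library, and 5 libraries per group limit the exact tests to p = 0.00794.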
